A study of Mus musculus with 8 samples.

Results

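The activin system of the mouse hippocampus was followed here through 10 genes, picked by symbol from a deposited table of 34094 genes: the ligand subunits Inhba, Inhbb and Inha, the secreted antagonists Fst and Fstl3, the type I receptors Acvr1, Acvr1b and Acvr1c, and the type II receptors Acvr2a and Acvr2b. Each symbol matched 1 row, and all 10 genes reached the level needed for testing. RNA-seq libraries came from hippocampus tissue, labelled CA1, of C57BL/6 mice of 2 months. Of these, 4 were of genotype WT and 4 were labelled cko type (Brpf1 knockdown), called cKO here. Brpf1 encodes a scaffold of histone acetyltransferase complexes, and the series concerns its loss in the hippocampus and the effect on spatial and contextual learning. One protocol counts 3 pairs of mice for these 8 libraries. The sources used here state neither which mouse gave which library nor what drives the knockout nor which exons it removes, and they name no other treatment for either group. A p-value thus measures only how far these libraries spread, which may in part be technical.

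Activins are secreted dimers of inhibin beta subunits, encoded by Inhba and Inhbb, while a beta subunit joined to the alpha subunit encoded by Inha forms inhibin, which opposes activin. Follistatin, the product of Fst, and the related Fstl3 protein bind activin and keep it from its receptors. Activin binds a type II receptor, which phosphorylates a type I receptor, and the signal reaches the nucleus through Smad2 and Smad3. In hippocampal neurons Inhba is known as a gene induced by synaptic activity, and activin A is known for effects on dendritic spines and on neuronal survival.

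The genes were grouped together with their cKO and WT values already known. The authors' deposited table gave Inhba (ENSMUSG00000041324) a false discovery rate (FDR) of 0.00185 and Fst (ENSMUSG00000021765) an FDR of 0.0216, both lower in cKO, and 2 of the 10 genes were under 0.05 in the authors' deposited table, where 0.657% of all 34094 genes were and 0.305% were also lower in cKO. The other 8 genes had an FDR of at least 0.559 in the authors' deposited table. The differences between cKO and WT of the 10 genes are therefore given as a description, with no test. Values are normalized reads, that is, reads divided by a size factor of the library. A log2 difference is taken on log2(normalized reads + 1), so genes with few reads have their difference understated.

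WT libraries held 42346644 to 49897832 reads on genes and cKO libraries 40330226 to 46559795. Genes with at least 1 read numbered 26634 to 27549 in WT and 25476 to 26587 in cKO, with no overlap (two-sided exact permutation p = 0.0286, the smallest that 4 against 4 libraries can give). Brpf1 had 1358 to 1473 normalized reads in the WT libraries and 848 to 1032 in the cKO libraries, and its log2 difference of −0.59 (SE 0.089) did not pass limma over all genes (adjusted p = 0.132), while its FDR in the authors' deposited table was 1.47e-07. The tissue label names CA1, while the sample titles name the hippocampus. All 8 CA1 pyramidal markers examined were detected, with summed normalized reads of 18399 to 26728 in WT and 18584 to 27346 in cKO. Among them is Dcn, which is also in the list of mural and meningeal fibroblast markers. The 9 markers of CA2 and CA3 pyramidal cells, also all detected, summed to 18882 to 21286 and 19071 to 22173. The 8 markers of dentate granule cells, neurons of the neighbouring field, summed to 25116 to 28008 and 22862 to 28319. In tissue RNA of this kind, fewer cells of a type and less RNA per cell cannot be told apart.

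The stretch before the start of Inhba is shown beside that of Inhbb, because these 2 genes encode the alternative beta subunits, and Inhba was lower in every cKO library while Inhbb overlapped. Both are the 250 bases upstream of a RefSeq transcript start in the GRCm38.p6 build, which is later than the mm9 build named in the submitters' processing notes. The Inhba window is chr13:16011601-16011850 on the plus strand and the Inhbb window is chr1:119422249-119422498 on the minus strand. Capitals mark a match to the consensus of MEF2, a family of transcription factors active in neurons.
Inhba: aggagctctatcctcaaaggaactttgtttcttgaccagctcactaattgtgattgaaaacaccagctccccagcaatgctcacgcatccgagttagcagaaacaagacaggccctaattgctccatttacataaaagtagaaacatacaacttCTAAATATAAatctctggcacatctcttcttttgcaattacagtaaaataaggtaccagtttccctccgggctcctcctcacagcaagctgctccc
Inhbb: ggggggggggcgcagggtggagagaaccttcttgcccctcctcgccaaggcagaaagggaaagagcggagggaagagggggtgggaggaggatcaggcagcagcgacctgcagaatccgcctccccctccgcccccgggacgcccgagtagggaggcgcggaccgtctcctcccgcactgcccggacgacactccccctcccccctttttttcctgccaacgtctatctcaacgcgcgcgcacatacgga

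The 2 windows differ in base composition. The Inhba window held 43.2% G and C with 3 CG dinucleotides, and the Inhbb window 68.0% with 21, against medians of 52.4% and 6 over 32851 promoter windows of this length. The MEF2 match of 10 bases in the Inhba window began 96 bases before the start, and 2.92% of all windows held such a match on either strand. The consensus is mostly A and T, and only 19.0% of windows held less G and C than that of Inhba. The share of matches among windows of like composition was not measured. The letters TATAAA, the core of a TATA box, overlap that match and occurred in 12.4% of all windows. Neither window held the cAMP response element TGACGTCA (1.55% of all windows), its half-site TGACG (17.8%), the AP-1 element TGANTCA (6.75%), a serum response element (1.47%) or the Smad element CAGAC (42.2%), searched on both strands. A match is a description of letters, and binding was not measured. Windows were at hand for 9 of the 10 genes, all but Fst. Those of the receptors held 72.8% to 85.6% G and C, apart from 1 of the 2 Acvr1c windows at 49.6%, and that of Inha held 53.6%.

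Among the ligand subunits, Inhba was lower in every cKO library than in any WT library. Its normalized reads were 587, 777, 554 and 546 in WT replicates 1 to 4 and 392, 218, 343 and 383 in cKO replicates 1 to 4. The highest value was that of WT replicate 2, the lowest that of cKO replicate 2, and the groups did not overlap. The means were 616 ± 109 and 334 ± 80.2 (SD, n = 4), so that cKO held 54.2% of the WT level, a log2 difference of −0.90 (SE 0.20). The overlapping opposite-strand gene B230303A05Rik had 384 to 596 normalized reads over the 8 libraries. Its groups overlapped, and no exon of it overlaps an exon of Inhba.

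Inhbb, which encodes the other beta subunit, overlapped between the groups. WT replicates 1 to 4 had 396, 363, 400 and 284 normalized reads and cKO replicates 1 to 4 had 350, 315, 326 and 411. Both the lowest library, WT replicate 4, and the highest, cKO replicate 4, lay outside the range of the other group, and the log2 difference was −0.036 (SE 0.15). Inha, the alpha subunit gene, had 707, 587, 681 and 831 normalized reads across WT replicates, against 690, 663, 599 and 655 across cKO replicates. All 4 cKO libraries lay inside the WT range, and the log2 difference was −0.098 (SE 0.12).

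**Figure D1:**
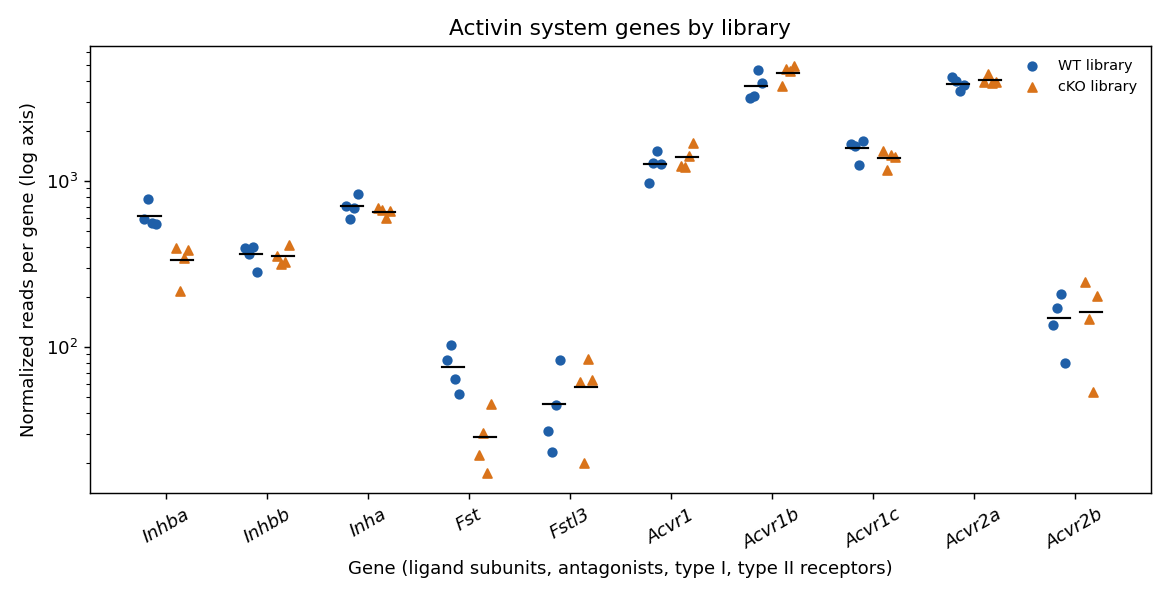
Normalized reads (log axis) of the 10 activin system genes in each WT library (circles) and each cKO library (triangles), with lines at the group means. Inhba and Fst are the genes whose groups do not overlap, at 546 to 777 against 218 to 392 for Inhba and at 51.8 to 102.6 against 17.5 to 45.0 for Fst.

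The balance between the 2 beta subunit transcripts differed along with Inhba. Per kilobase of exon, Inhba made up 53.1 ± 5.15% of the Inhba and Inhbb transcripts in WT, against 38.4 ± 4.96% in cKO (SD, n = 4). The share ran from 48.0% to 58.8% in WT libraries and from 31.5% to 42.7% in cKO libraries, without overlap. As the share is built from Inhba itself, it is a further view of the same difference.

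Of the secreted antagonists, Fst was the gene with the largest log2 difference of the 10 in size. WT replicates 1 to 4 had 83.2, 102.6, 64.1 and 51.8 normalized reads, and cKO replicates 1 to 4 had 22.2, 30.1, 17.5 and 45.0. The groups did not overlap, though the gap between WT replicate 4 and cKO replicate 4 was narrow. The means were 75.4 ± 22.2 and 28.7 ± 12.1 (SD, n = 4), 38.1% of the WT level, with a log2 difference of −1.40 (SE 0.34). These values rest on few reads, at least 60 in each WT library and 16 to 47 in each cKO library, so counting error takes a larger share of the spread than for Inhba, with 564 to 765 and 217 to 400 reads. The antisense gene Gm47040, whose exons overlap those of Fst, had at most 0.930 normalized reads in any library. After quantile normalization between libraries the Fst groups overlapped, with a log2 difference of −1.27.

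Fstl3, which encodes a protein that binds activin much as follistatin does, was about as low as Fst and varied widely. WT replicates had 31.2, 23.4, 44.6 and 82.9 normalized reads and cKO replicates 61.4, 20.1, 84.1 and 63.2. The groups overlapped over nearly their whole range (log2 difference 0.31, SE 0.49), and the difference ranged from 0.057 to 0.75 as single libraries were left out. Exons of Prss57, on the opposite strand, overlap those of Fstl3 in the GRCm38 annotation, and Prss57 had 14.4 to 89.4 normalized reads. The library kit keeps strand, but the sources used here do not say whether the counting used it, so reads of the 2 genes may be mixed.

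Inhba was set against Fst within each library to describe the ligand beside its antagonist. The number of Inhba reads per Fst read was 7.05, 7.57, 8.64 and 10.5 in WT replicates 1 to 4 and 17.6, 7.23, 19.6 and 8.51 in cKO replicates 1 to 4. Thus 2 cKO libraries lay above all WT libraries and the other two lay within the WT range. For Inhbb the ratio to Fst was 3.53 to 6.23 in WT and 9.13 to 18.6 in cKO, without overlap, while Inhbb itself overlapped between the groups. As that ratio is built from Fst itself, it is a further view of the Fst difference. A ratio of reads reflects transcript lengths too and is comparable between libraries, not between genes.

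**Figure D2:**
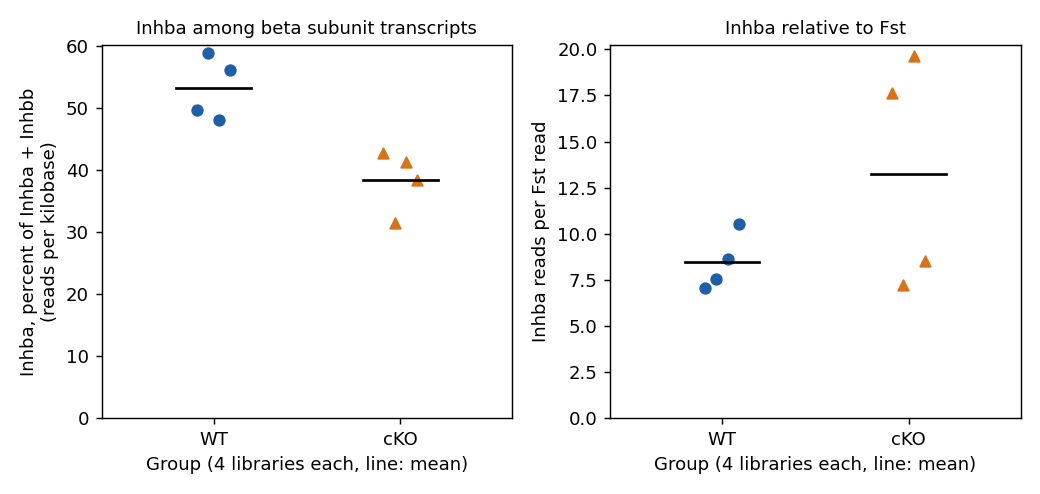
Left, Inhba as a percentage of Inhba plus Inhbb in reads per kilobase. Right, Inhba reads per Fst read, with each point 1 library and each line the mean of 4. The share of Inhba was 48.0% to 58.8% in WT and 31.5% to 42.7% in cKO, while the ratio of Inhba to Fst overlapped between the groups.

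The receptors differed less. Log2 differences of the 5 receptor genes lay between −0.19 and 0.27, and every one of them overlapped between the groups. Acvr1b, the main type I receptor for activin, had 3133, 3231, 4683 and 3884 normalized reads across WT replicates, against 3717, 4703, 4583 and 4899 across cKO replicates. Means were 3733 ± 715 and 4476 ± 522 (SD, n = 4), and WT replicates 1 and 2 lay below all cKO libraries while WT replicate 3 lay among them (log2 difference 0.27, SE 0.13). Acvr1c, a type I receptor used by activin B and Nodal, had 1677, 1622, 1253 and 1735 in WT and 1503, 1170, 1433 and 1397 in cKO. WT replicate 3 alone made the groups overlap, and without it every WT library was above every cKO library, with a log2 difference of −0.29 in place of −0.19 (SE 0.12).

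Acvr1, a type I receptor that serves mainly bone morphogenetic proteins (BMPs), had 972, 1272, 1513 and 1260 normalized reads across WT replicates, against 1230, 1208, 1414 and 1683 across cKO replicates (log2 difference 0.15, SE 0.15). Acvr2a, a type II receptor that binds activin directly, varied least over the 8 libraries relative to its level, with 4198, 3972, 3459 and 3785 in WT and 3936, 4380, 3901 and 3934 in cKO (log2 difference 0.069, SE 0.080). Exons of Orc4, an origin recognition gene on the opposite strand, overlap those of Acvr2a, and Orc4 had 2542 to 3628 normalized reads. As for Fstl3 and Prss57, reads of Acvr2a and Orc4 may be mixed. The second type II receptor gene, Acvr2b, had 136, 172, 209 and 79.5 normalized reads across WT replicates and 247, 148, 53.5 and 201.1 across cKO replicates. Both groups spanned more than their means differed (log2 difference 0.0041, SE 0.46), and the sign of the difference changed as single libraries were left out, from −0.27 to 0.46.

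Counted over the 10 genes, cKO lay below WT without overlap for 2 (Inhba and Fst), where 2.35% of the 26135 genes tested did so, and above WT for 0, where 2.57% did. In limma over all genes 0 of the 10 passed an adjusted p of 0.05, and 0.0191% of all genes did. With limma-voom on the recovered reads 0 of 10 passed as well, with 0.0153% of all genes called. At an unadjusted limma p under 0.05 the count was 2 of 10, beside 8.67% of all genes in either direction. The log2 difference was below 0 for 5 of the 10, against 52.7% of all genes, and its median was −0.016 against −0.018 over all genes. As the genes were chosen with this contrast known, nothing is read from these counts.

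**Figure D3:**
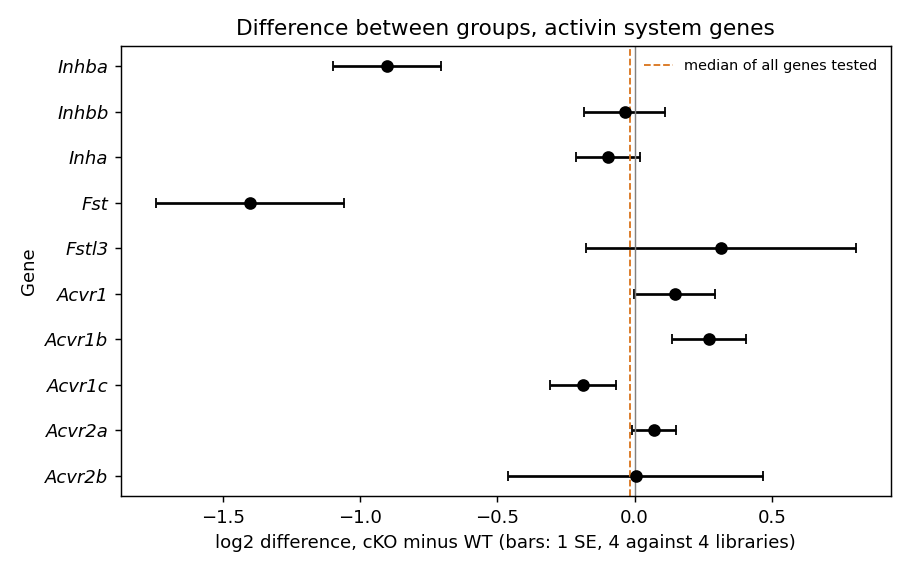
Log2 difference between cKO and WT for each of the 10 genes, with bars of 1 SE over 4 against 4 libraries. Inhba at −0.90 and Fst at −1.40 stand to the left, and the other 8 genes lie between −0.19 and 0.31 around the median of all genes tested (dashed line).

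Levels of different genes were compared per kilobase of exon. Over all 8 libraries Acvr1b had 929 ± 159 normalized reads per kilobase, Acvr2a 694 ± 47.8, Inha 459 ± 51.0, Acvr1 273 ± 44.7, Acvr1c 159 ± 21.6, Inhbb 83.6 ± 10.6, Acvr2b 39.6 ± 16.7 and Fstl3 21.0 ± 10.4 (SD, n = 8). Inhba and Fst, whose difference between the groups chose them, are given per group, with 96.4 ± 17.0 in WT, against 52.3 ± 12.6 in cKO for Inhba and 16.4 ± 4.85 and 6.26 ± 2.63 for Fst (SD, n = 4). Inhba thus stood above Inhbb in the WT means (Inhbb 84.8 ± 12.6) and below it in the cKO means (82.4 ± 10.1). By mean and with this length, Fst was lowest of the 10 in both groups. In WT it was close to Fstl3 (18.6 ± 10.8), by less than either SD, so their order there is not settled. Transcripts of the receptor pair Acvr1b and Acvr2a were the most abundant of the 10 in both groups, though the Acvr2a level may include reads of Orc4. Among type II receptor transcripts Acvr2a made up 94.7 ± 2.17% in WT, against 94.5 ± 2.78% in cKO (SD, n = 4), and Acvr1b made up 66.0 ± 3.23% and 69.9 ± 2.94% of the 3 type I receptors.

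Neighbours in the order of the means over 8 libraries were compared by a two-sided exact sign-flip permutation test (Benjamini-Hochberg over all 9 pairs). Of the 6 pairs without Inhba or Fst, 5 differed. The step from Acvr2a to Inha was 0.60 on the log2 scale, from Inha to Acvr1 0.76, from Acvr1 to Acvr1c 0.78 and from Acvr1c to Inhbb 0.92, each seen in 8 of 8 libraries (exact adjusted p = 0.0176). The step from Acvr1b to Acvr2a was 0.40 and held in 7 of 8 libraries (exact adjusted p = 0.0281). Acvr2b and Fstl3 did not differ beyond their spread (0.95, in order in 6 of 8 libraries, exact adjusted p = 0.10). The pairs were set by the same means that the test compared, so these p-values lean towards a difference.

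The other 3 pairs hold Inhba or Fst and carry the contrast that chose these genes. They enter the correction over all 9 pairs, but their ratios are given here without p-values. Inhbb over Inhba was 0.25 on the log2 scale over 8 libraries and −0.18 in the WT libraries alone. Inhba over Acvr2b was 0.96 and 1.42, and Fstl3 over Fst was 0.94 and 0.060. With 7 libraries the smallest p of the test is larger, and the call for Acvr1b over Acvr2a was lost without WT replicate 2, 3 or 4 or cKO replicate 4 (exact adjusted p up to 0.0563 over the alternatives). Acvr2b over Fstl3 ranged from 0.0469 to 0.176 in exact adjusted p and passed in 1 of 9 alternatives. With the longest transcript as the length, Inha and Acvr1 no longer differed (log2 ratio 0.21, exact adjusted p = 0.131), and Inhba over Acvr2b was 0.65.

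**Figure D4:**
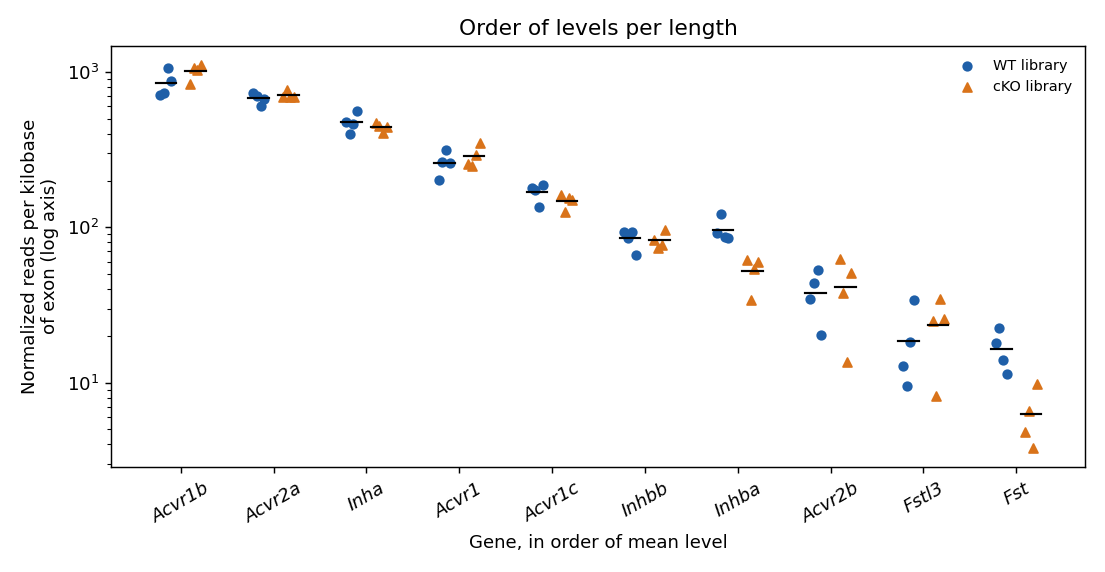
Normalized reads per kilobase of exon (log axis) for the 10 genes in order of their mean over 8 libraries, with WT libraries as circles, cKO libraries as triangles and lines at group means. Levels run from 929 for Acvr1b to 11.3 for Fst.

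The other genes of the pathway were taken from lists of related ligands, receptors, antagonists, proteases, Smads, targets and activity-induced genes, 152 genes in all, of which 145 were tested. In limma over all genes 0 of 145 passed (0.0191% of all genes did), as did 0 in limma-voom on the recovered reads. An unadjusted limma p under 0.05 was reached by 9 (6.21%, beside 8.67% of all genes), with 4 above WT (4.07% of all genes) and 5 below it (4.6%). For 3 genes WT and cKO were separate (2.07%, beside 4.92% of all genes). The median log2 difference was −0.0074, against −0.018 over all genes.

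Ligands of the activin and transforming growth factor beta (TGF-beta) branch had a median log2 difference of 0.029, with 0 of 10 tested at an unadjusted limma p under 0.05. Tgfb2, the most abundant of them, had 2379 ± 97.6 normalized reads in WT, against 2434 ± 169 in cKO (SD, n = 4). Gdf11, a ligand close to myostatin that uses the activin receptors, had 1160 ± 39.9 and 1216 ± 122. Ligands of the BMP branch had a median of −0.24 with 0 of 15 at an unadjusted limma p under 0.05. Their WT libraries varied widely, as for Bmp6 with 431 ± 241 in WT, against 357 ± 62.5 in cKO, and for Bmp7 with 292 ± 149 and 276 ± 37.5.

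Of 15 other receptors and co-receptors tested, 1 had an unadjusted limma p under 0.05 (6.67%, beside 8.67% of all genes). This was Bmpr2, the BMP type II receptor and the most abundant gene of the list, with 12541 ± 778 normalized reads in WT, against 11049 ± 878 in cKO (log2 difference −0.18, SE 0.076, limma adjusted p = 0.544). Bmpr1a, a BMP type I receptor, had 3787 ± 182 and 3659 ± 149. Summed over the list, WT libraries had 26456 to 27965 and cKO libraries 25039 to 26322 normalized reads, which do not overlap. Without Bmpr2, a sum added after the values were seen, they were 14326 to 14829 and 13969 to 15558, which overlap. The median log2 difference of the list was −0.0020, with 8 genes below 0 and 7 above.

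Among 23 other secreted antagonists and latency proteins, Fstl1 was the 1 gene whose groups did not overlap (4.35%, beside 4.92% of all genes). It was higher in cKO. Fstl1 encodes a secreted glycoprotein with a follistatin-like domain. It had 1543, 1443, 1555 and 1537 normalized reads across WT replicates, against 1684, 1767, 1689 and 1890 across cKO replicates, a log2 difference of 0.21 (SE 0.074), which did not pass over all genes (limma adjusted p = 0.514). The BMP antagonist gene Chrd, the most abundant of the list, had 3259 ± 357 and 3106 ± 589 (SD, n = 4). Of the 7 proteases that process such ligands, 0 had an unadjusted limma p under 0.05, and Furin, which cleaves the activin precursor, had 1330 ± 115 in WT, against 1392 ± 95.2 in cKO.

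Downstream, 2 of 20 Smads and partners had an unadjusted limma p under 0.05 (10%, beside 8.67% of all genes). Both were lower in cKO (4.6% of all genes) and both were named after their values were seen. Smurf1, a ubiquitin ligase acting on Smads, had 1808 ± 193 normalized reads in WT, against 1445 ± 314 in cKO (limma adjusted p = 0.565), and the deubiquitinase gene Usp15 had 5119 ± 255 and 4404 ± 575 (limma adjusted p = 0.55). The median of this list was 0.048. Of 15 common targets of activin and TGF-beta 1 had an unadjusted limma p under 0.05 (6.67%, beside 8.67% of all genes). This was Bhlhe40, a transcriptional repressor gene, with 2870 ± 506 and 3499 ± 420 (limma adjusted p = 0.574), and the list median was 0.033. Among 12 common BMP targets none did in limma, the median was −0.028, and Id4, the most abundant, had 4771 ± 511 and 5256 ± 662.

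**Figure D5:**
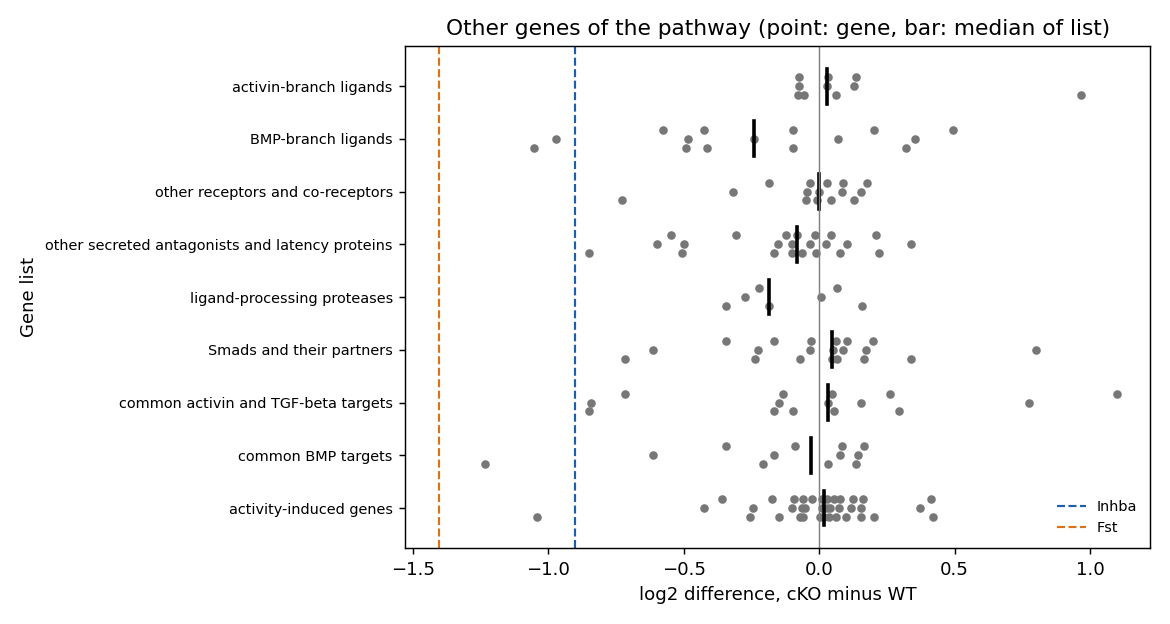
Log2 difference between cKO and WT of each tested gene (points) in 9 lists of pathway genes, with a bar at the median of each list and dashed lines at Inhba (−0.90) and Fst (−1.40). The list medians lie between −0.24 and 0.048.

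Genes induced by neuronal activity were examined because Inhba is one of this kind. Of 37 tested 4 had an unadjusted limma p under 0.05 (10.8%, beside 8.67% of all genes), 2 higher and 2 lower in cKO. The median was 0.020. The secretory granule gene Scg2 was higher in every cKO library (10109 ± 337 and 11679 ± 1049 normalized reads, limma adjusted p = 0.519), and Btg2, an antiproliferative gene, was lower in every one (1003 ± 101.3 and 839 ± 63.6, limma adjusted p = 0.529). The other two, Jun and Npas4, were named after their values were seen. Npas4, a transcription factor gene that responds to activity in neurons, had 876, 743, 661 and 509.5 in WT and 430, 272, 189 and 546 in cKO, where cKO replicate 4 lay above WT replicate 4 (log2 difference −1.04, SE 0.31, limma adjusted p = 0.496). Jun, which encodes a part of AP-1, had 3106 ± 722 and 4055 ± 341 (limma adjusted p = 0.519). Summed over the list, normalized reads were 92035 to 106671 in WT and 83020 to 126471 in cKO.

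Markers of other cell types that the dissected tissue could hold were examined beside Inhba and Fst. All 12 choroid plexus markers tested had a log2 difference below 0 (median −0.76), with sums of 12586 to 243269 normalized reads in WT and 19570 to 71584 in cKO. Ependymal markers were below 0 for 9 of 10 (sums 1406 to 3165 and 1341 to 1811), oligodendrocyte markers for 10 of 10 (sums 121031 to 177607 and 98431 to 152584), and mural and meningeal fibroblast markers for 7 of 12 (sums 11225 to 21319 and 12351 to 14817). Every marker of these 4 lists had reads, and each list's sums overlapped between the groups. At an unadjusted limma p under 0.05, 4 of 10 ependymal (40%), 3 of 10 oligodendrocyte (30%), 1 of 12 choroid plexus and 0 of 12 fibroblast markers were lower in cKO, beside 4.6% of all genes. WT and cKO were separate for 2 oligodendrocyte markers (20%) and 1 ependymal marker (10%), each lower in cKO, beside 2.35% of all genes. They were separate for 0 of the choroid plexus and fibroblast markers. WT replicate 2, with the highest Inhba and Fst of all libraries, also had the highest sums of choroid plexus, ependymal and fibroblast markers. WT replicate 4 had the next highest sums of these lists (114601, 2337 and 16226). It had the lowest Inhba and Fst of the WT libraries. Without WT replicate 2 the log2 differences were −0.79 for Inhba and −1.24 for Fst. Leaving out a library cannot make separate groups overlap, so nothing is read from their separation there. Interneuron markers lay above 0 for 9 of 10 and microglial markers for 8 of 8, with sums that overlapped between the groups. At that p 1 of 10 interneuron (10%) and 2 of 8 microglial markers (25%) were higher in cKO, beside 4.07% of all genes. WT and cKO were separate for 1 interneuron marker (10%), higher in cKO, beside 2.57% of all genes, and for 0 microglial markers. Astrocyte markers lay above 0 for 6 of 9 and endothelial markers below 0 for 6 of 8, with overlapping sums. At that p 1 of 9 astrocyte (11.1%) and 1 of 8 endothelial markers (12.5%) were higher in cKO, beside 4.07% of all genes. WT and cKO were separate for 1 astrocyte marker, higher in cKO (11.1%, beside 2.57% of all genes), and for 0 endothelial markers. Of the 8 CA1 pyramidal markers, 1 was higher in cKO at that p and 1 was separate and higher (12.5% each). For the CA2 and CA3 and the dentate granule markers both counts were 0. The part of all these cell types in the Inhba and Fst values was not tested.

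Genes whose libraries deviated most like those of Inhba and Fst were sought among 13578 genes with a mean of at least 50 normalized reads. The measure was the Pearson correlation of deviations from the group means over 8 libraries, which share depth and tissue composition, and it is given as a description. For Inhba the leading 5 genes were Fkbp2 (0.989), Mir670hg (0.988), Odc1 (0.977), Pdia6 (0.961) and Chst9 (0.958). Mir670hg, a noncoding RNA gene, and Fkbp2, a gene for an isomerase of the endoplasmic reticulum, were also lower in every cKO library than in any WT library, with 226 ± 31.3 and 147 ± 31.4 normalized reads for Mir670hg and 1935 ± 44.0 and 1791 ± 80.3 for Fkbp2 (SD, n = 4). Of the log2 values themselves, which hold the group difference too, Mir670hg (0.992), Fkbp2 (0.990), Pigu (0.980), Rassf9 (0.966) and Tmc4 (0.959) were most like Inhba. Pigu and Rassf9 were also lower in every cKO library than in any WT library, and Tmc4 overlapped.

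For Fst the leading 5 genes by deviations were Myo1c (0.948), Smtnl2 (0.945), Mir99ahg (0.943), Lefty1 (0.941) and the alpha globin gene Hba-a2 (0.931). Lefty1 encodes an inhibitor of Nodal, a ligand of the activin branch, and had 293 ± 47.6 normalized reads in WT, against 281 ± 44.2 in cKO (SD, n = 4). Of the log2 values themselves Ccdc155 (0.967), Mir99ahg (0.964), Nrtn (0.946), Ano4 (0.945) and Fhod1 (0.939) were most like Fst. Mir99ahg was lower in every cKO library than in any WT library (337 ± 83.9 and 201.6 ± 62.3). The same held for Ano4 (955 ± 64.1 and 788 ± 42.8) and Fhod1 (286 ± 39.0 and 206 ± 23.4), while Ccdc155 and Nrtn overlapped. Inhba and Fst were not close to each other once the group means were removed, with a correlation of 0.23, and Inhba ranked 3772 of the 13578 genes by likeness to Fst.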

How the data were processed

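RNA-seq of 4 WT and 4 cKO libraries was used. The submitters' processing notes name the tools STAR, StringTie and DESeq2, used by the authors, and the mm9 build, without versions or roles. The authors deposited a log2 value per gene and library, which equals log2(reads / size factor + 1), since 100% of values gave whole reads (tolerance 0.001). They also deposited a log2 fold change, p-value and FDR, and no source used here names the test that gave the authors' p-value. A gene was tested if 4 or more libraries reached a normalized value of 1 (26135 genes), with limma 3.58.1 in R 4.3.3 (trend, robust, no covariate) on the log2 values. Adjusted p is Benjamini-Hochberg over these genes, threshold 0.05. limma-voom with trimmed-mean factors used the recovered reads. Lengths are exon unions of GENCODE vM21 (GRCm38), matched by gene identifier. The statistics were tested on simulated data. With 4 against 4 libraries limma recovered 30% of genes changed 1.5-fold, 90% at 0.5-fold and 100% at 3-fold or 0.25-fold. The simulated dispersion was the same for every gene, so these shares need not hold for the real libraries. The 10 genes and all lists were chosen with earlier results of these data known.

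Named genes were the 10 genes, Brpf1, the 3 most abundant of each pathway list, any member called over all genes, up to 4 members without overlap and with a mean of at least 10, and the 5 genes most like Inhba and Fst by each measure; a part of these is given. Alternatives were quantile normalization, no filter, a minimum of 10, a pseudocount of 0.1 in place of 1, array weights, a replicate block, limma-voom, another gene length and leaving out each library. The authors' group means were not used.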

Additional observations from a re-analysis of the deposited data

Results flagged for a closer look

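In 5 of 80 groups of 4 libraries examined, 1 library stood apart from the other 3, in that its gap to the nearest took up more than 0.829 of the whole range; chance alone gives about 1 in 20 groups. Acvr2a had 4380 normalized reads in cKO replicate 2, against 3901 to 3936 in the other cKO libraries. Bmpr2 had 12353 in cKO replicate 1, against 10448 to 10711. Fstl1 had 1443 in WT replicate 2, against 1537 to 1555. Plk2, a kinase gene induced by activity, had 8891 in cKO replicate 4, against 7898 to 7984. Rasgrp1, a nucleotide exchange factor gene, had 22443 in WT replicate 4, against 25073 to 25521.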

How the results depend on the processing

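Over all genes 5 passed limma. The count was 8 with array weights and 2 with the replicate block, and it ranged from 3 to 7 as single libraries were left out, the 3 being without WT replicate 4. The cause was not tested. Same-numbered libraries did not deviate together (correlations of 0.057, −0.0060, 0.037 and −0.015 over 15043 genes), so the numbers were not taken as pairs. With the block 0 of the 145 pathway genes passed, as under each of the other alternatives. The number of activin system genes without overlap was 2 and became 1 after quantile normalization, where Fst overlapped. It was 2 or 3 as single libraries were left out, the third being Acvr1c without WT replicate 3. Leaving out a library cannot make separate groups overlap, so that count could not fall. Pathway genes at an unadjusted p under 0.05 numbered 9, and 4 to 16 as single libraries were left out. Of the 6 pairs of neighbours in level without Inhba or Fst, 5 passed the threshold. Acvr2a over Inha, Acvr1 over Acvr1c and Acvr1c over Inhbb passed in all 9 alternatives. Inha over Acvr1 passed in 8 (lost with the longest transcript), Acvr1b over Acvr2a in 5 and Acvr2b over Fstl3 in 1. Inhba and Fst were lower in cKO under all 15 alternatives, with log2 differences of −0.99 to −0.71 and −1.64 to −1.20. As their groups do not overlap, leaving out a library could not change the sign. No filter, a minimum of 10 and the replicate block left the differences at −0.90 and −1.40. Both genes were chosen with this contrast known, so nothing is read from the shared sign. With few reads, Fst, Fstl3 and Acvr2b carry the most counting error of the 10.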
